A study of Homo sapiens with 8 samples.

Results

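A set of 10 genes of glucose uptake and glycolysis was followed probe by probe on one-color Agilent expression arrays of NGP cells, an established human neuroblastoma line. They are the glucose transporters SLC2A1 and SLC2A3, the hexokinases HK1 and HK2, the phosphofructokinase PFKP, the regulatory enzyme PFKFB3, the aldolase ALDOC, the phosphoglycerate kinase PGK1 and the lactate dehydrogenase subunits LDHA and LDHB. Every probe whose annotation named one of these genes was taken, which gave 16 probes of 50599 tested and 10 genes of 21524 named on the array. 6 of the genes had 2 probes and 4 had 1 probe.

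The series holds 4 arrays of mock-infected cells and 4 of cells that received CFC1 cDNA. Both groups were transduced with lentivirus and then selected with puromycin, per the labels' protocols, and were grown in the same medium. The labels name neither a clone nor a promoter, nor do they say whether the 4 samples of a group were separate cultures. Any p-value below thus reflects array-to-array spread, part or all of which may be technical. CFC1 encodes Cryptic, a membrane-anchored co-receptor for Nodal, and the comparison asks how its expression alters the transcripts of the line.

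Glucose enters cells through facilitative transporters and is trapped by hexokinase as glucose 6-phosphate. Phosphofructokinase then commits it to glycolysis, and its strongest activator, fructose 2,6-bisphosphate, is made and broken down by the PFKFB enzymes. Aldolase splits the sugar, phosphoglycerate kinase makes ATP, and lactate dehydrogenase turns pyruvate into lactate. Most steps have several isozymes from separate genes, and many tumors express the forms SLC2A1, HK2, PFKFB3 and LDHA strongly. Hypoxia-inducible factors and MYC are known activators of several of these genes.

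Promoter windows of the 10 genes were searched for a short sequence after their array values were known, and 6 windows are printed. Those of LDHA, PGK1 and HK2 are shown because LDHA, PGK1 and HK2 were higher in the arrays labelled CFC1, and the one of LDHB because LDHB, the other subunit of the same enzyme, was not called. SLC2A1, HK1 and PFKFB3 were also called higher, and their windows are not printed. Each window holds the 250 bases before a start that RefSeq lists on GRCh38.p14, written 5′ to 3′ on the strand of the gene. Capitals mark ACGTG and its reverse complement CACGT, the core of the best-known binding sequence of hypoxia-inducible factors. The 6-base sequence CACGTG, an E-box of the kind MYC binds, contains it on both strands. The LDHA windows lie at chr11:18394313-18394562, plus strand, and chr11:18396101-18396350, plus strand. The LDHB window lies at chr12:21657843-21658092, minus strand. The PGK1 window lies at chrX:78103998-78104247, plus strand. The HK2 windows lie at chr2:74833877-74834126, plus strand, and chr2:74834920-74835169, plus strand.
LDHA, first start: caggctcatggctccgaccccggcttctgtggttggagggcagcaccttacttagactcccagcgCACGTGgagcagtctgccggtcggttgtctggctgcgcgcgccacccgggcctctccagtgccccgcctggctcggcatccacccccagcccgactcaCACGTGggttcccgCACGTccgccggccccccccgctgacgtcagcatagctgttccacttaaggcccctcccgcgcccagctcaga
LDHA, second start: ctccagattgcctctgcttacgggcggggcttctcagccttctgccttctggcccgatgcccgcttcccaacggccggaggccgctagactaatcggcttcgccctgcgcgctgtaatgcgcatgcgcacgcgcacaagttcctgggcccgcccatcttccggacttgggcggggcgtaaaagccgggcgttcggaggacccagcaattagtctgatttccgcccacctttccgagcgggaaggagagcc
LDHB: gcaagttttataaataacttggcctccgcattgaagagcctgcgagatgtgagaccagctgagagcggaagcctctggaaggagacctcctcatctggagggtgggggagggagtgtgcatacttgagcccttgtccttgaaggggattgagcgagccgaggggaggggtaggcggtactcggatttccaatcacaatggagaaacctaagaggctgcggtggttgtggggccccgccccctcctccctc
PGK1: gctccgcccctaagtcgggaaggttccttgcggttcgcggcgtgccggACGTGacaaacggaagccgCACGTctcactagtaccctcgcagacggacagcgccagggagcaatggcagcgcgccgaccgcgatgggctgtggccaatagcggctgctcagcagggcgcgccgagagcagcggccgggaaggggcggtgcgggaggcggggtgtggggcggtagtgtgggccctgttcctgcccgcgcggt
HK2, first start: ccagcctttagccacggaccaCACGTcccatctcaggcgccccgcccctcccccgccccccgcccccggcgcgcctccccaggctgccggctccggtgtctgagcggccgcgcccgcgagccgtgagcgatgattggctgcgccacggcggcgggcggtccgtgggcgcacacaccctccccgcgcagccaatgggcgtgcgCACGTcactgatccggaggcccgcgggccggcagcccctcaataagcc
HK2, second start: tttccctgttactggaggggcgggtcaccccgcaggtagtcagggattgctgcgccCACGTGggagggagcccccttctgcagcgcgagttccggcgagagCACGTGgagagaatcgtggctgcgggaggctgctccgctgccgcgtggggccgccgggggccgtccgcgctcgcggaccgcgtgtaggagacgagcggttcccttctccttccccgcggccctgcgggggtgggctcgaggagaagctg

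The first LDHA window held 3 stretches in capitals, 2 of them CACGTG. PGK1 and each HK2 window held 2, and in the second HK2 window both were CACGTG. The second LDHA window and the LDHB window held none. RefSeq gave 21 windows for 9 of the 10 genes, and 7 of these windows, from 6 genes, held ACGTG on either strand. Besides LDHA, PGK1 and HK2 these were ALDOC with 2 stretches, PFKFB3 with 1 in its second window and PFKP with 1 in the third of its windows. CACGTG was in 4 of the 21 windows, 1 each of LDHA, HK2, ALDOC and PFKFB3. No window of SLC2A1 or HK1, both called higher, held ACGTG or CACGTG, and SLC2A3 was not matched. Of all 35116 windows in the table, 18.5% held ACGTG and 6.34% held CACGTG on either strand. The related core GCGTG, on either strand, was found in 8 of the 21 windows, among them the second LDHA window, and in 32.2% of all windows. The genes with ACGTG included ALDOC, which was not called, and PFKP, which was lower. A link between the sequence and the array differences was not tested. These matches describe letters in a window, and the arrays measured no binding.

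The array values are log2 differences from a baseline that is not stated and differs from probe to probe. Within 1 probe arrays can be compared, but no gene can be set against another by level. A positive difference means a higher value under the CFC1 label than in mock. Significance was judged by limma fitted over all 50599 probes, with Benjamini-Hochberg adjusted p-values and a threshold of 0.05. The array medians ran from -0.144 to 0.138, and the median difference of all probes was -0.14. The transduced gene was not higher in its own group. Its probe gave 0.47, 1.10, 0.12 and -0.027 in mock replicates 1 to 4 against 0.055, -0.69, -0.59 and -0.30 in its own group, a difference of -0.80 (95% interval -1.45 to -0.14, adjusted p = 0.0546 in limma, exact two-sided permutation p = 0.0571). Where in the transcript this probe lies was not determined, so it may fall outside the introduced cDNA. Every direction below therefore rests on the labels. The values carry no level by which neuroblastoma markers could be called present. Of 9 probes for 8 of 9 such genes, 2 were higher and 5 lower under the CFC1 label. Called differences ran from -2.18 for ISL1 to 0.41 for 1 TH probe, with MYCN at 0.16, and the other TH probe was not called (-0.27). Of 25 probes for markers of fibroblasts, Schwann cells, endothelium and immune cells, 1 was higher (the immune marker CD14, 1.16). Of the same 25, 8 were lower, down to -3.08 for KDR. Among probes with a gene symbol, 27.2% were higher and 26.4% lower. The part of these markers in the results was not tested.

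Most of the 16 probes were higher in the arrays labelled CFC1. Of the 16, 10 were called higher, 2 lower and 4 were not called. Over all probes 42.1% were called, 20.0% higher and 22.1% lower, and over the 31993 probes with a gene symbol 53.6% were called, 27.2% higher and 26.4% lower. By gene, SLC2A1, SLC2A3, HK1, HK2, PFKFB3, PGK1 and LDHA had at least 1 probe called higher and none called lower. Both probes of PFKP were lower, and ALDOC and LDHB had no called probe. The median of the 16 differences was 0.50, against -0.14 for all probes and -0.10 for probes with a gene symbol. A called difference of at least 1, or 2-fold, was found for 6 of the 16 probes, against 15.6% of all probes and 18.6% of those with a gene symbol. These were both probes of HK2, both of LDHA, and 1 each of SLC2A3 and PFKFB3. The groups did not overlap in 14 of the 16, against 42.6% of all probes and 54.7% of those with a gene symbol. For 13 of the 16 probes the mean of the arrays labelled CFC1 lay nearer to the baseline than the mock mean. This was not counted over all probes, so it is not given as particular to these 16. The baseline is not stated, and a difference therefore does not show which group moved.

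**Figure D1:**
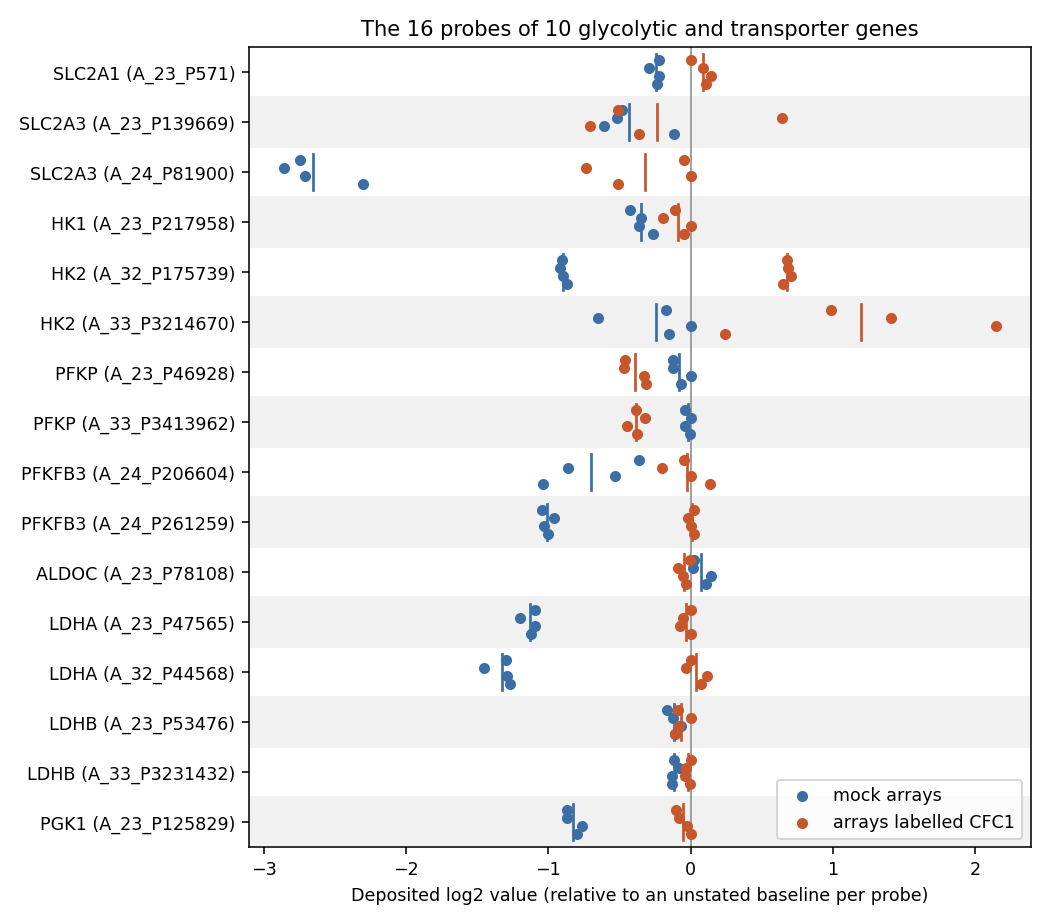
Deposited log2 value (x axis, relative to an unstated baseline for each probe) of each array for the 16 probes. Points are single arrays, 4 mock and 4 labelled CFC1, and vertical bars are group means. The groups lie apart in 14 of the 16 probes, and the 2 SLC2A3 probes differ from each other.

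Of the 2 transporters, SLC2A1 was measured by 1 probe and SLC2A3 by 2, and the 2 SLC2A3 probes gave different results. SLC2A1, also known as GLUT1, is the basal glucose carrier of most cells. The mock arrays read -0.22, -0.29, -0.22 and -0.24 in replicate order, against 0, 0.086, 0.14 and 0.11 for those labelled CFC1. The mock arrays lay close together and below all arrays of the other group. The means were -0.24 ± 0.032 (SD, n = 4) for mock and 0.085 ± 0.061 (SD, n = 4) for the CFC1 label, a difference of 0.33 (95% interval 0.21 to 0.44, adjusted p = 0.000795 in limma), or 1.25-fold.

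SLC2A3, also known as GLUT3, is the high-affinity carrier typical of neurons. On probe A_24_P81900, the mock arrays read -2.75, -2.86, -2.71 and -2.30 in replicate order, against -0.048, -0.74, 0 and -0.51 for those labelled CFC1. All mock arrays lay far below the other group, with a gap of 1.565 between the nearest arrays. The difference of 2.33 (95% interval 1.86 to 2.80, adjusted p = 4.05e-05 in limma) was the largest of the 16 and larger in absolute size than that of 95.2% of all probes. It was 1.49 after quantile normalization (adjusted p = 0.00265). On the other probe, A_23_P139669, the mock arrays read -0.48, -0.52, -0.61 and -0.12 in replicate order, against -0.51, 0.65, -0.71 and -0.36 for those labelled CFC1. These groups overlapped, with 1 array labelled CFC1 above all others and another below all others. The difference was 0.20 (95% interval -0.49 to 0.89, adjusted p = 0.618 in limma), and without CFC1 replicate 2 it was -0.10.

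The 2 SLC2A3 probes were compared within each array, a comparison chosen after their values were seen. A_24_P81900 minus A_23_P139669 averaged -2.22 ± 0.10 (SD, n = 4) in mock and -0.09 ± 0.93 (SD, n = 4) under the CFC1 label. The change of 2.13 gave an exact two-sided permutation p of 0.0286, the smallest that 70 arrangements allow. Both probes are annotated to the same transcript, and their places in it were not determined. SLC2A14 is a near-identical neighbouring copy of SLC2A3, and its own probe was higher by 1.69 (95% interval 1.46 to 1.93, adjusted p = 4.65e-06 in limma). The values of SLC2A3 and SLC2A14 may thus hold signal of both genes.

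Of the 2 hexokinases, HK2 differed far more than HK1. HK1 is the form found in most tissues. The mock arrays read -0.43, -0.35, -0.36 and -0.27 in replicate order, against -0.11, -0.19, 0 and -0.049 for those labelled CFC1. The groups did not overlap, with a gap of 0.073 between the nearest arrays. The difference was 0.26 (95% interval 0.12 to 0.41, adjusted p = 0.00861 in limma), or 1.2-fold.

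HK2 is the inducible form of insulin-sensitive tissues and many tumors. On probe A_32_P175739, the mock arrays read -0.90, -0.92, -0.90 and -0.87 in replicate order, against 0.68, 0.69, 0.71 and 0.65 for those labelled CFC1. The arrays of each group agreed to within a few hundredths of a log2 unit, and both group means lay away from the baseline, on opposite sides. The difference was 1.575 (SE 0.039, 95% interval 1.48 to 1.67, adjusted p = 5.52e-08 in limma), or 2.98-fold, with the smallest p-value of the 16 probes.

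The second HK2 probe, A_33_P3214670, differed in the same direction with much more spread. The mock arrays read -0.17, -0.65, 0 and -0.15 in replicate order, against 0.99, 1.41, 2.15 and 0.24 for those labelled CFC1. The lowest array labelled CFC1, replicate 4, lay 0.242 above the highest mock array. The means were -0.24 ± 0.28 (SD, n = 4) for mock and 1.20 ± 0.80 (SD, n = 4) for the CFC1 label, and the difference was 1.44 (95% interval 0.53 to 2.35, adjusted p = 0.0185 in limma). The call did not hold without mock replicate 2 (1.30, adjusted p = 0.0523) and without CFC1 replicate 2 (1.37, adjusted p = 0.0506).

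PFKP was the only one of the 10 genes called lower. It encodes the platelet-type subunit of phosphofructokinase, the committed step of the pathway. On probe A_23_P46928, the mock arrays read -0.12, -0.12, 0 and -0.065 in replicate order, against -0.46, -0.47, -0.33 and -0.31 for those labelled CFC1. On probe A_33_P3413962, the mock arrays read -0.037, 0, -0.037 and -0.005 in replicate order, against -0.38, -0.32, -0.45 and -0.38 for those labelled CFC1. All 4 arrays labelled CFC1 lay below all mock arrays on both probes. The differences were -0.31 (95% interval -0.45 to -0.18, adjusted p = 0.00312 in limma) and -0.36 (95% interval -0.47 to -0.26, adjusted p = 0.000294 in limma). Mock was thus 1.24-fold and 1.29-fold higher. With each array centred on its median, the first probe was at -0.27 and lost its call (adjusted p = 0.0519).

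PFKFB3 makes fructose 2,6-bisphosphate with little of the reverse reaction. On probe A_24_P261259, the mock arrays read -1.05, -0.96, -1.03 and -1.001 in replicate order, against 0.022, -0.017, 0.006 and 0.022 for those labelled CFC1. The difference was 1.02 (SE 0.041, 95% interval 0.92 to 1.11, adjusted p = 6.04e-07 in limma), or 2.03-fold. On probe A_24_P206604, the mock arrays read -0.36, -0.86, -0.53 and -1.04 in replicate order, against -0.049, -0.20, 0 and 0.14 for those labelled CFC1. Here the mock arrays were spread widely, from -1.04 to -0.36, though all lay below the other group. The difference was 0.67 (95% interval 0.30 to 1.04, adjusted p = 0.01 in limma).

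ALDOC, the aldolase of brain, was not called. The mock arrays read 0.026, 0.015, 0.14 and 0.11 in replicate order, against -0.007, -0.089, -0.055 and -0.032 for those labelled CFC1. The lowest mock array lay only 0.022 above the highest array labelled CFC1. The difference was -0.12 (95% interval -0.23 to -0.005, adjusted p = 0.0941 in limma), close to the median of all probes. PGK1, the first ATP-forming enzyme of the pathway, was higher. The mock arrays read -0.87, -0.87, -0.77 and -0.80 in replicate order, against -0.10, -0.083, -0.024 and 0 for those labelled CFC1. The groups were 0.667 apart at their nearest arrays. The difference was 0.775 (SE 0.048, 95% interval 0.66 to 0.89, adjusted p = 6.6e-06 in limma), or 1.71-fold.

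Of the lactate dehydrogenase subunits, LDHA was higher and LDHB was not called. LDHA encodes the M subunit, which favors lactate formation, and LDHB the H subunit, which favors the return to pyruvate. On the LDHA probe A_23_P47565, the mock arrays read -1.09, -1.20, -1.10 and -1.12 in replicate order, against 0.006, -0.053, -0.073 and 0 for those labelled CFC1. On the LDHA probe A_32_P44568, the mock arrays read -1.30, -1.45, -1.29 and -1.27 in replicate order, against 0, -0.032, 0.12 and 0.073 for those labelled CFC1. The groups were more than 1 log2 unit apart at their nearest arrays on both probes. The differences were 1.10 (SE 0.046, adjusted p = 7.59e-07 in limma) and 1.37 (SE 0.061, adjusted p = 1.1e-06 in limma), or 2.14-fold and 2.58-fold.

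On the LDHB probe A_23_P53476, the mock arrays read -0.17, -0.13, -0.065 and -0.11 in replicate order, against -0.088, 0, -0.078 and -0.11 for those labelled CFC1. On the LDHB probe A_33_P3231432, the mock arrays read -0.12, -0.081, -0.13 and -0.13 in replicate order, against 0, -0.033, -0.042 and -0.007 for those labelled CFC1. The groups overlapped on the first probe and were 0.039 apart on the second. The difference was 0.048 (95% interval -0.061 to 0.16, adjusted p = 0.448 in limma) on the first and 0.095 (95% interval 0.004 to 0.19, adjusted p = 0.0939 in limma) on the second. Both intervals lie below the smallest LDHA interval bound of 0.99. LDHA, LDHB and PGK1 have processed pseudogenes of similar sequence, so part of their signal may be of other origin.

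**Figure D2:**
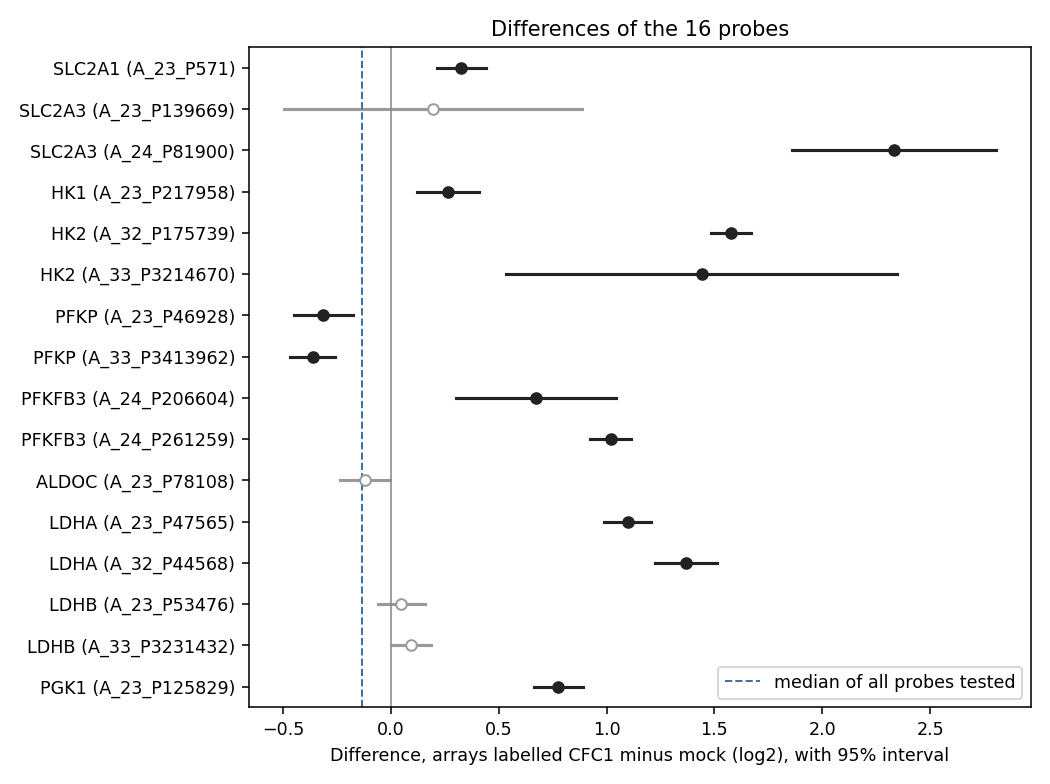
Difference between the groups (x axis, log2, arrays labelled CFC1 minus mock) for each of the 16 probes, with its 95% interval from limma. Filled points passed the threshold of 0.05 and open points did not, and the dashed line marks the median of all probes at -0.14. Both HK2 probes, both LDHA probes, 1 PFKFB3 probe and 1 SLC2A3 probe reach a difference of 1 or more.

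Isozymes of 1 step were also compared with each other inside each array, where a shift of the whole array cancels. For each array the mean of the probes of the second gene was taken from that of the first, and the groups were set against each other with a two-sided exact permutation test of all 70 arrangements. The 8 pairs were adjusted together by Benjamini-Hochberg, and 5 passed at an adjusted p of 0.0457 each, from the smallest possible p of 0.0286. HK2 minus HK1 was -0.11, -0.43, -0.087 and -0.24 in mock and 0.94, 1.24, 1.43 and 0.49 in the arrays labelled CFC1, a change of 1.24. All 4 arrays labelled CFC1 were above all mock arrays. By probe, the change was 1.31 (exact permutation p = 0.0286) with HK2 probe A_32_P175739 and 1.18 (exact permutation p = 0.0571) with A_33_P3214670. LDHB minus LDHA was 1.05, 1.22, 1.09 and 1.07 in mock and -0.047, 0.026, -0.082 and -0.10 in the other group, a change of -1.16.

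ALDOC minus ALDOA went from 0.77 ± 0.037 (SD, n = 4) in mock to -0.019 ± 0.067 (SD, n = 4) under the CFC1 label. ALDOA, the aldolase of muscle and most other tissues, was higher by 0.67 (95% interval 0.54 to 0.79, adjusted p = 3.07e-05 in limma). SLC2A3 minus SLC2A1 changed by 0.94, but by 2.004 with 1 SLC2A3 probe and -0.13 with the other. PFKP minus PFKM, the muscle-type subunit, changed by -0.15, by -0.18 (exact permutation p = 0.0286) with PFKP probe A_33_P3413962 and by -0.13 (exact permutation p = 0.0857) with A_23_P46928. PFKM itself was lower, at -0.185 (adjusted p = 0.0155 in limma). PFKM lost its call after quantile normalization (-0.15, adjusted p = 0.252) and after median centring (-0.14, adjusted p = 0.309).

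3 pairs did not pass. PFKP minus PFKL, the liver-type subunit, changed by -0.52 (adjusted p = 0.131, permutation test), and the groups overlapped. PFKL itself differed by 0.18 (95% interval -0.35 to 0.72, adjusted p = 0.542 in limma), and by 0.025 after quantile normalization. PFKFB3 minus PFKFB2 changed by -0.28 (adjusted p = 0.114, permutation test) and PFKFB3 minus PFKFB4 by 0.17 (adjusted p = 0.314, permutation test), which ran from 0.072 to 0.292 without 1 array. By probe the change ran from -0.90 to 0.34 for PFKFB3 minus PFKFB2, and was 0 with 1 PFKFB3 probe and 0.35 with the other for PFKFB3 minus PFKFB4. After quantile normalization none of the 8 pairs passed in the permutation test, with 4 pairs at the smallest exact p and an adjusted p of 0.0571, and SLC2A3 minus SLC2A1 at 0.33 (adjusted p = 0.137).

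**Figure D3:**
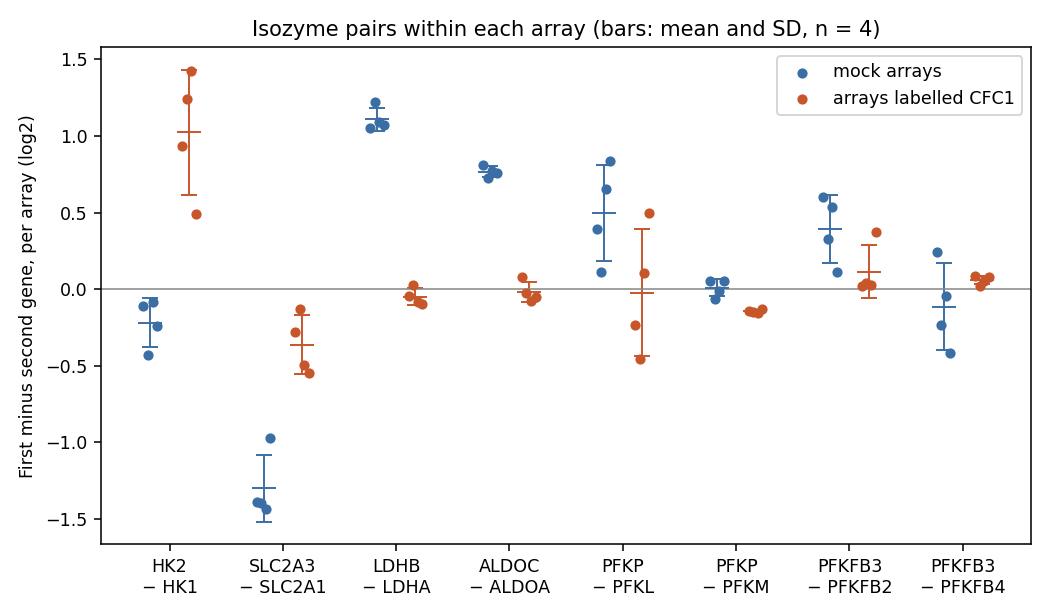
Within-array difference between the isozymes of a pair (y axis, log2, first gene minus second) for the 8 pairs. Points are single arrays and bars give the mean and SD (n = 4) of the mock arrays and of the arrays labelled CFC1. The groups lie apart for the HK2, SLC2A3, LDHB, ALDOC and PFKP minus PFKM pairs, and overlap for the other 3.

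The remaining enzymes of glycolysis were read from a list of 26 genes, 24 of them measured by 29 probes. Of these, 16 probes were called higher and 3 lower, with a median difference of 0.41. Over probes with a gene symbol, 27.2% were higher and 26.4% lower, and over all probes 20.0% and 22.1%. TIGAR, a phosphatase that lowers fructose 2,6-bisphosphate, was higher by 2.19 (SE 0.13, adjusted p = 5.12e-06 in limma). PFKFB2, a bifunctional relative of PFKFB3, was higher by 1.57 and 0.67 on its 2 probes (adjusted p = 1.96e-06 and 0.0198 in limma). The groups overlapped on the second probe, and its call was lost after quantile normalization (0.56, adjusted p = 0.103). PFKFB4, another member of that family, was higher by 0.67 (adjusted p = 0.000264 in limma).

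Isozymes of enolase and phosphoglycerate mutase were called in both directions. ENO2, the neuronal enolase and a common marker of neuroblastoma, gave -1.86, -1.89, -1.77 and -1.83 in mock and 0, -0.11, -0.043 and -0.078 in the arrays labelled CFC1. It was higher by 1.78 (SE 0.048, adjusted p = 8.34e-08 in limma). PGAM2, the muscle phosphoglycerate mutase, gave -0.043, 0, 0.19 and 0.019 in mock and -1.70, -1.71, -1.78 and -1.87 in the other group. It was lower, at -1.81 (SE 0.069, adjusted p = 4.75e-07 in limma), and at -3.24 after quantile normalization. On the PGAM2 probe the mock arrays lay near the baseline, as on both PFKP probes. ENO1 and PGAM1, the more widely expressed forms, are named outside the rule, after their values were seen. ENO1 was lower at -0.42 (adjusted p = 0.00157 in limma), a call lost after quantile normalization (-0.22, adjusted p = 0.0919 in limma). PGAM1 was higher by 0.51 and 0.56 on its 2 probes (adjusted p = 4.08e-05 and 5.37e-05 in limma). ENO3 and PGAM4, also named outside the rule, were higher by 1.03 and 0.70 (adjusted p = 1.29e-06 and 0.000135 in limma).

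**Figure D4:**
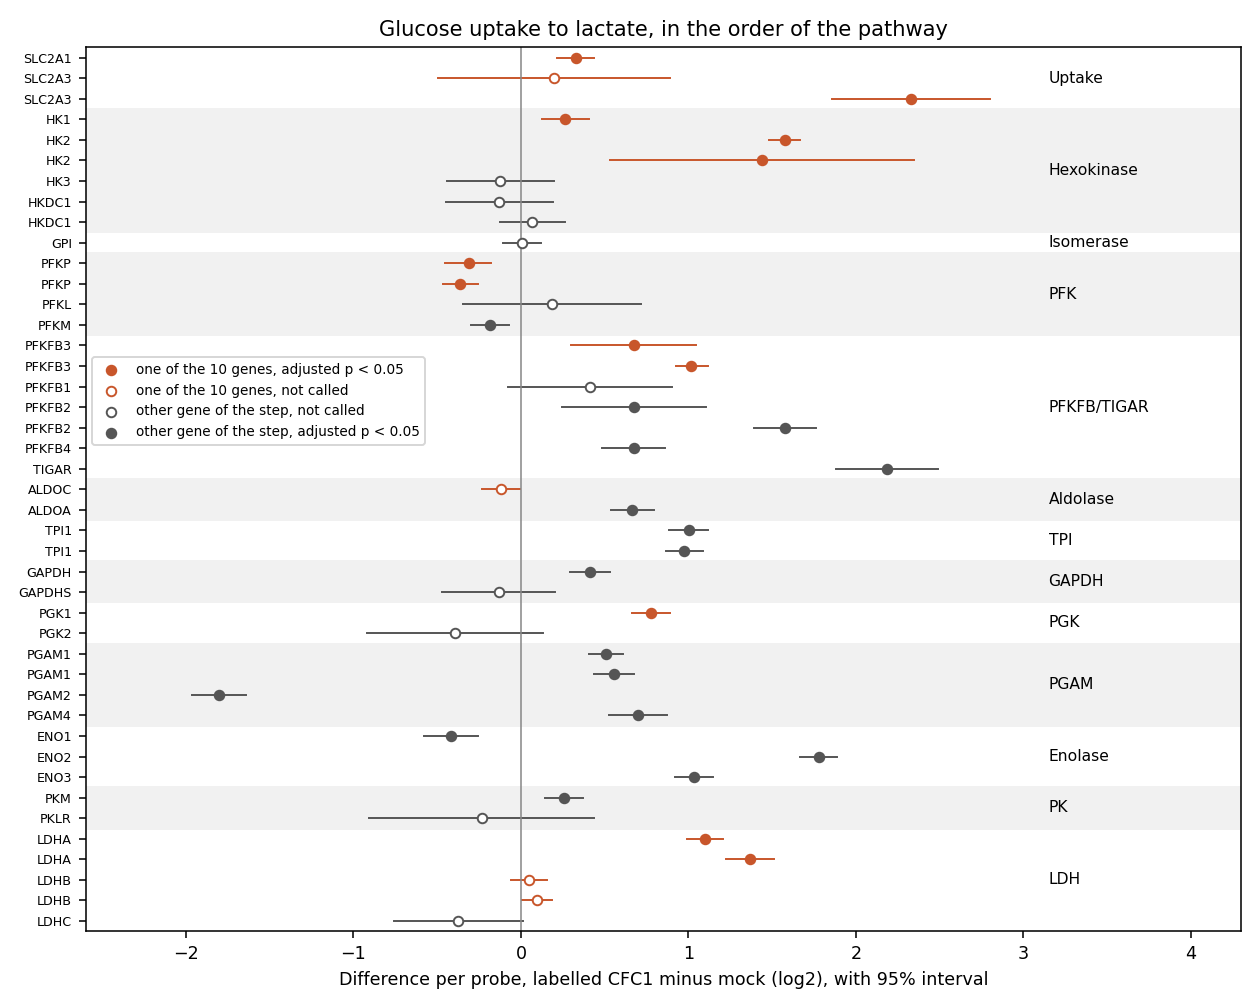
Difference per probe (x axis, log2, arrays labelled CFC1 minus mock, with 95% interval from limma) for the steps from glucose uptake to lactate, in pathway order. The 10 genes are in orange and other enzymes of the same steps in grey, uptake shows SLC2A1 and SLC2A3 alone, and filled points passed the threshold. Most called probes drawn lie above 0, with PFKP, PFKM, PGAM2 and ENO1 below it.

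The other glucose transporters showed no common direction. Of 20 probes for 14 genes, 6 were higher, 4 lower and 10 not called, with a median difference of -0.004. Of the probes with a gene symbol, 53.6% were called, near the 10 of 20 here. SLC2A10 and SLC2A4, the insulin-responsive carrier GLUT4, were higher by 2.67 (adjusted p = 0.000143 in limma) and 2.49 (adjusted p = 1.53e-06 in limma). SLC2A11 was lower on both probes, at -2.15 and -0.75 (adjusted p = 4.27e-08 and 0.00204 in limma). SLC2A6 was called higher on 1 probe (0.95) and lower on the other (-0.35). SLC2A6 is named outside the rule, after its values were seen, and its second call was lost after quantile normalization (-0.13, adjusted p = 0.21 in limma).

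Among genes that handle pyruvate and lactate more probes were higher than lower. Of 24 probes for 21 genes, 13 were higher, 3 lower and 8 not called, with a median of 0.52. Over probes with a gene symbol, 27.2% were higher and 26.4% lower. SLC16A3, the monocarboxylate transporter MCT4 that exports lactate, was higher by 1.94 (SE 0.053, adjusted p = 8.87e-08 in limma). SLC16A7, the high-affinity transporter MCT2, gave 2.64, 2.40, 2.61 and 2.70 in mock and 0.14, 0.019, 0 and 0.17 in the arrays labelled CFC1. It was lower, at -2.50 (SE 0.080, adjusted p = 1.97e-07 in limma). The pyruvate dehydrogenase components DLAT and PDHA1 were higher by 1.87, and by 1.57 and 1.03 on the 2 PDHA1 probes (adjusted p = 1.14e-07, 0.000163 and 5.5e-07 in limma).

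Among 28 measured genes of the pentose phosphate, glycogen, gluconeogenic and related branches, 12 of 31 probes were higher, 6 lower and 13 not called, with a median of 0.08. The share of these 31 that was called is near the 53.6% of probes with a gene symbol. GPD2, the mitochondrial glycerol phosphate dehydrogenase that carries electrons from glycolysis to the respiratory chain, was higher by 5.06 and 4.76 on its 2 probes (adjusted p = 3.98e-08 and 1.8e-05 in limma). PYGM, the muscle glycogen phosphorylase, was higher by 2.88 and FBP1, a gluconeogenic phosphatase, by 2.53 (adjusted p = 1.18e-05 and 6.43e-08 in limma). PCK2, the mitochondrial PEP carboxykinase, was lower on both probes, at -2.15 and -1.25 (adjusted p = 6.87e-06 and 2.94e-06 in limma).

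Among regulators of these genes more probes were lower than higher. Of 28 probes for 19 genes, 5 were higher, 15 lower and 8 not called, with a median of -0.29, against 27.2% higher and 26.4% lower of probes with a gene symbol. EPAS1, the factor HIF-2alpha, gave 5.04, 5.05, 5.004 and 5.08 in mock and 0.49, 0.45, 0 and 0.37 in the arrays labelled CFC1. It was lower, at -4.71 (adjusted p = 3.98e-08 in limma). HIF1A, MYC and its relative MYCN are named outside the rule, after their values were seen, HIF1A and MYC as known activators. HIF1A was lower on both probes, each at -0.36 (adjusted p = 0.000211 and 0.0011 in limma), and the second call was lost after quantile normalization (-0.37, adjusted p = 0.0591 in limma). MYC was lower on 1 probe, at -1.42 (adjusted p = 1.48e-05 in limma), and at -0.90 after quantile normalization (adjusted p = 0.000772 in limma). Its other probe was at -0.74 (adjusted p = 0.269 in limma), with overlapping groups. MYCN went the other way and was higher by 0.16 (adjusted p = 0.0388 in limma). HIF3A was lower on 2 probes, at -2.77 and -2.04 (adjusted p = 9.44e-05 and 3.58e-07 in limma), and the third was at 0.038 (adjusted p = 0.845 in limma). The glucose-sensing factors went in opposite directions: MLXIPL, or ChREBP, was higher by 3.88 (adjusted p = 5.57e-06 in limma), and MLXIP, or MondoA, was lower at -3.03 and -2.49 (adjusted p = 6.09e-09 and 9.29e-08 in limma).

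**Figure D5:**
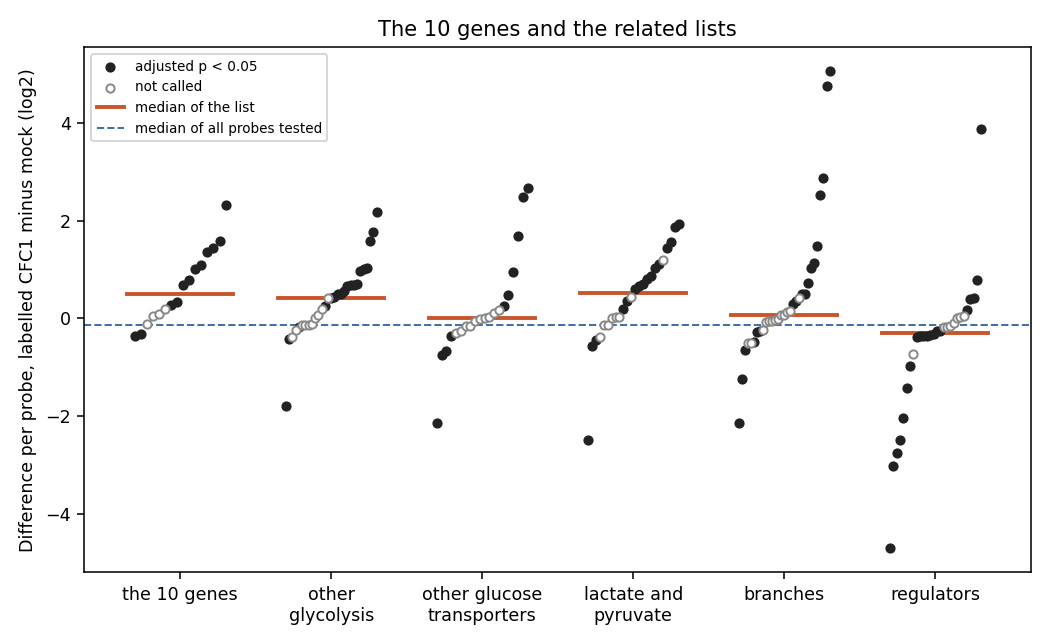
Difference per probe (y axis, log2, arrays labelled CFC1 minus mock) for the 16 probes of the 10 genes and for the 5 related lists. Filled points passed the threshold, orange bars are list medians and the dashed line is the median of all probes. The medians run from 0.52 for lactate and pyruvate genes and 0.50 for the 10 genes down to -0.29 for the regulators.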

How the data were processed

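The deposited table holds log2 values of 8 arrays, 50739 rows, read as log2 differences from a baseline for each probe. Per the labels' protocols, total RNA was labelled with Cyanine3 for one-color Agilent arrays. How the authors extracted, corrected and scaled these values, and the log base and baseline, is not given in the sources used here. Values run from -13.0 to 9.81, with at most 1 exact 0 per probe. Background and saturation flags were not used, and a fold near background is a fitted value. Precision is limited by the 8 arrays.

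All but 140 control spots, 50599 probes, were fitted with limma 3.58.1 under R 4.3.3, using lmFit and eBayes with group as the single term, with two-sided Benjamini-Hochberg adjusted p-values. Of these probes, 31993 had 1 gene symbol, updated through accession for 28423, symbol for 3069 and synonym for 479, while 22 kept their name. Probes with no symbol in the table given stayed unnamed. Gene names and promoters are from RefSeq (GRCh38.p14), and promoter windows were trimmed to the 250 bases before the start. The motifs, the trim and the printed windows were chosen after the values were seen. Some genes of the lists are not reported here. From each related list up to 4 genes with the largest called difference are named, besides all probes of the 10 genes, CFC1 and the isozymes paired with them. SLC2A6, ENO1, ENO3, PGAM1, PGAM4, HIF1A, MYC, MYCN and the genes sharing the HK3 profile are named outside this rule, after their values were seen. The members and lists were chosen with earlier results of these data known.

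Alternatives were quantile normalization, median centring, a block for the replicate number, array weights, a variance trend, unmoderated variances, a fit over 21524 genes, values read as natural logarithms, and leaving out each array. The fit was tested on simulated data. Its pass mark was first the recovery of changed probes and was replaced, after that was seen, by bias, false calls and interval coverage. Python 3.11.15, numpy 2.4.6, pandas 2.3.3 and matplotlib 3.10.9 were used.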

Additional observations from a re-analysis of the deposited data

Results flagged for a closer look

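Probes of the 10 genes, of CFC1 and of most other named genes gave 116 groups of 4 arrays. Of these, 2 held an array far from the other 3, where chance gives about 1 in 20. On the GPD2 probe A_33_P3354564, mock replicate 2 stood at -5.609, below the other mock arrays at -4.253 to -4.003. On the FBP1 probe A_23_P257111, mock replicate 2 stood at -2.584, above the other mock arrays at -2.695 to -2.680. None of the 32 groups of the 16 probes of the 10 genes held such an array.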

How the results depend on the processing

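Of 256 combinations of a probe of the 10 genes with an alternative, 248 kept direction and side of the threshold. Those with values read as natural logarithms keep both by construction, since only the scale changes. For the fit over genes, the mean of a gene was set against each of its probes. In the alternatives fitted to probes, the counts called among the 16 probes stayed within 1.5 times the reported ones, with 1 exception. With arrays centred on their median, 1 probe instead of 2 was lower. The fit over genes counts genes and not probes: 7 of the 10 genes were higher and 2 lower, PFKP and ALDOC. Without 1 array, 9 to 10 were higher and 2 lower, and 20144 to 20472 of all probes were called, against 21289. The number of isozyme pairs passing fell from 5 to 0 after quantile normalization, where 4 pairs at the smallest p no longer suffice over 8. Without 1 array the pairs were not tested by permutation, and the changes of the 5 pairs kept their sign. The CFC1 probe was called with array weights (-0.81, adjusted p = 0.046) and ranged from -0.94 to -0.57 without 1 array, with a call without mock replicate 4 or CFC1 replicate 1 (adjusted p = 0.0376 and 0.0393). SLC2A3 probe A_23_P139669 turned to -0.097 without CFC1 replicate 2 (range up to 0.355), and the mean of both SLC2A3 probes was called (1.26, adjusted p = 7.02e-05). HIF3A probe A_33_P3338152, not called, turned to -0.008, -0.010 and -0.051 without mock replicate 3, mock replicate 4 and CFC1 replicate 2 (range up to 0.137), and the mean of 3 HIF3A probes was -1.59. The mean of both SLC2A6 probes was 0.299, against -0.35 for the lower one. ALDOC was called at -0.12 with unmoderated variances and over genes (adjusted p = 0.0396 and 0.0414), and LDHB probe A_33_P3231432 with unmoderated variances (0.095, adjusted p = 0.00311). PFKFB2 probe A_24_P413669 lost its call with the replicate block (adjusted p = 0.0764) and when mock replicate 1, 2, 3 or CFC1 replicate 1 was left out (0.61 to 0.66). If the logarithm were natural, HK2 would differ by 2.27 and LDHA by 1.58 and 1.97 log2 units.

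Deviations of same-numbered arrays correlated at 0.095 to 0.197, each array best with its own number, which is a hint from the data and not from the design. With the replicate number as a block, 21980 probes were called, and 10 of the 16 were higher and 2 lower. A paired sign-flip test of the isozyme pairs cannot go below an exact p of 0.125 with 4 pairs, so it says nothing about them.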

Other observations

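HK3, the hexokinase of blood cells, gave -0.18, -0.25, -0.17 and 0.26 in mock replicates 1 to 4 and -0.26, -0.39, -0.21 and 0.02 in the arrays labelled CFC1. Of all 50599 probes, 4790 (9.47%) lay within 0.15 of HK3 in all 8 arrays, HK3 itself included. Among the related lists these were 3 of 29 probes of glycolysis (HK3, GAPDHS and 1 of HKDC1), 2 of 20 of transporters (SLC2A2 and SLC2A5), 1 of 24 of lactate and pyruvate (LDHAL6B) and none of 31 of branches or 28 of regulators, shares near or below that of all probes. Among the marker lists they were 3 of 8 immune probes (3 of 5 for PTPRC), 2 of 8 endothelial (PECAM1 and VWF), 1 of 6 fibroblast (DCN), 1 of 3 Schwann (S100B) and none of 9 neuroblast probes. Apart from the neuroblast list these shares are above 9.47%, on lists of few probes. Other probes of PECAM1, VWF, DCN and S100B did not follow HK3 within 0.15 in all 8 arrays. A PECAM1 probe among them missed this narrowly, in mock replicate 1 (-0.029, against -0.18 for HK3). The other DCN and S100B probes were called lower, at -2.095 and -2.549, as was another VWF probe, at -0.37. None of the 16 probes of the 10 genes followed HK3 within 0.15 in all 8 arrays. HK3 and the tolerance were chosen after the values were seen.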
